A study of Mus musculus with 11 samples.

Results

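T cells recognise antigen through the T cell receptor, whose antigen-binding chains carry no signalling tail of their own. The signal passes through the CD3 epsilon, delta and gamma chains, encoded by Cd3e, Cd3d and Cd3g, and through the zeta chain, encoded by Cd247. Lck, the kinase that first phosphorylates these chains, is held at the co-receptor CD4, the product of Cd4. Elf1 and Ets1 belong to the ETS family, whose members bind DNA at a GGAA core, and Cbfb is the partner with which Runx proteins bind DNA. Foxp3 is the transcription factor that defines regulatory T (Treg) cells. As background, an Elf1 site is known at the promoter of CD247 in human T cells, Runx proteins bind a silencer of Cd4 in mouse, and mouse Lck is read from a distal and a proximal promoter.

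Binding at these 6 genes was read from chromatin immunoprecipitation sequencing of Treg cells and of Foxp3-negative CD4+ T cells, called CD4 cells below. Both were taken from lymph nodes and spleen of mice of about 8 weeks and sorted on a green fluorescent protein reporter of Foxp3. The labels state neither the strain nor whether animals were pooled. From Treg cells, Elf1, Ets1 and Cbfb were each read in 1 library and Foxp3 in 3, of which 2 are technical repeats of replicate 1, and which the authors combined into 1 list of peaks. From CD4 cells, Elf1 and Ets1 were each read in 1 library. A CD4 Cbfb library and 2 Treg input libraries were not analysed here. The sorted cell types cannot be checked from binding positions, which hold no expression.

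Genes were represented by 4 mm9 windows, with Cd3e, Cd3d and Cd3g in chr9:44760000-44830000 (70 kb), Cd247 in chr1:167690000-167825000 (135 kb), Cd4 in chr6:124790000-124860000 (70 kb) and Lck in chr4:129210000-129270000 (60 kb). Every deposited position inside them was taken, 571 of the 1059098 in the 5 lists, with 9 of the 2886 Foxp3 peaks. No mm9 gene annotation was used here, so a position is given by its coordinate and its window. Whether it lies in an exon, intron or UTR of a member, or in a neighbouring gene, is not known. In the RefSeq gene order of the mouse (GRCm38.p6, protein-coding genes), Ube4a and Mpzl2 flank the 3 Cd3 genes, Creg1 and Pou2f1 flank Cd247, Gpr162 and Lag3 flank Cd4, and Hdac1 and Fam167b flank Lck.

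Promoters of the members are shown because Elf1 and Ets1 positions were dense in their windows, and the ETS core is the sequence these proteins read. The RefSeq promoter table, on build GRCm38.p6, matched 5 of the 6 genes and gave 6 starts, 2 of them for Lck. Cd4 had no match. Over the 250 bases before each start, GGAA or its reverse complement TTCC occurred in 6 of 6 promoters, but also in 93.4% of 32851 promoters in the table. The form AGGAAGT, in either direction, occurred in 5 of 6, against 7.69% of all promoters, and CAGGAAGT, which contains it, in 4 of 6, against 2.69%. Both longer forms were chosen after these promoters had been seen. Neither CCGGAAGT nor the forkhead form TGTTTAC occurred in the 6 promoters (2.88 and 3.17% of all), and the Runx core TGTGGT occurred in 1, the first Lck start (14.05% of all). The AGGAAGT match begins 18 bases before the start of Cd3e, 58 bases before that of Cd247, and 10 and 114 bases before the starts of Lck. Cd3d had its match further upstream and Cd3g had none. These GRCm38.p6 coordinates are not comparable with the mm9 positions, so it is not known whether a bound position covers a match. The 4 promoters with the longer form are given 5′ to 3′, with AGGAAGT or its reverse complement ACTTCCT in capitals.
Cd3e (GRCm38.p6, chr9:45009612-45009861, minus strand): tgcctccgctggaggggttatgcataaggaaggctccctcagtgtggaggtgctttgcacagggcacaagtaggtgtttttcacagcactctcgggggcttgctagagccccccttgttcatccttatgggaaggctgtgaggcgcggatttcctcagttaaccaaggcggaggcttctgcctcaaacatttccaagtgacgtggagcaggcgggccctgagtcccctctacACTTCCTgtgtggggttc
Cd247 (GRCm38.p6, chr1:165788431-165788680, plus strand): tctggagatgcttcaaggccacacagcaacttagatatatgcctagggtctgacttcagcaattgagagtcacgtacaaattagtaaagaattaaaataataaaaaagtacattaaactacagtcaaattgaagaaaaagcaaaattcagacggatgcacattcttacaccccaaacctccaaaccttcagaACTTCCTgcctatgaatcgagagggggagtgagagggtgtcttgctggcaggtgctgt
Lck, first start (GRCm38.p6, chr4:129573642-129573891, minus strand): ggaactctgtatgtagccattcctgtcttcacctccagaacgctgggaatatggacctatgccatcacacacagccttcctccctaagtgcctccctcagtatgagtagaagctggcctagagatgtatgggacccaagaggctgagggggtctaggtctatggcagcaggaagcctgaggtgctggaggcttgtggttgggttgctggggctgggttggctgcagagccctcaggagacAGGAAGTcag
Lck, second start (GRCm38.p6, chr4:129558373-129558622, minus strand): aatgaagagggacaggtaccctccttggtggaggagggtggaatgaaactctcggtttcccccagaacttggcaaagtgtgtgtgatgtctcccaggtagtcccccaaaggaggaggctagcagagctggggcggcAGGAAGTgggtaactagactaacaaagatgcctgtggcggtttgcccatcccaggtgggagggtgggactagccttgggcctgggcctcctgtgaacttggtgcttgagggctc

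All 4 windows together held more Elf1 and Ets1 positions than their length of 335 kb would give at the density of the whole list. At a false discovery rate (FDR) of at most 0.01, as the authors' files give it, Treg Elf1 had 52 positions, Treg Ets1 50, Treg Cbfb 31, CD4 Elf1 59 and CD4 Ets1 79. The share of deposited positions inside the windows that passed this limit was 86.7% for Treg Elf1, against 84% over the whole list. In the Treg Ets1 library it was 40.7% against 27.3%, and in Treg Cbfb 79.5% against 75.2%. CD4 Elf1 had 46.1% against 22.2% and CD4 Ets1 35.7% against 17.4%. Only the shares of CD4 Elf1, CD4 Ets1 and Treg Ets1 thus stood apart from their lists by more than 10 percentage points.

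Per length, CD4 Ets1 stood furthest above its list. Its positions lay at 2.36 per 10 kb in the windows, against 0.159 per 10 kb over the list, a ratio of 14.8 (exact Poisson 95% interval 11.7 to 18.5). For Elf1 the ratio was 2.60 (1.94 to 3.41) in Treg and 8.69 (6.62 to 11.2) in CD4, and for Treg Ets1 it was 6.39 (4.74 to 8.42). Treg Cbfb had the lowest, 2.01 (1.37 to 2.85). These intervals cover counting error only, since each group had 1 library and the number of reads behind it is unknown. The windows were also chosen with earlier results of these data known, so the ratios are descriptions only. The lists also differed in length, from 42040 positions for CD4 Ets1 to 157731 for Treg Elf1.

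Among the 10000 highest scores of each library, where the lists are equally long, Elf1 had 10 positions in the windows in Treg and 10 in CD4. The ratios to the list were then 7.80 (3.74 to 14.3) and 7.90 (3.79 to 14.5). Ets1 had 11 positions in Treg and 24 in CD4, with ratios of 8.70 (4.34 to 15.6) and 19.0 (12.2 to 28.2). Every window held fewer Treg than CD4 Ets1 positions at this length, with 5 against 9 at the Cd3 genes, 3 against 6 at Cd247, 1 against 4 at Cd4 and 2 against 5 at Lck. No replicate exists for either Ets1 library, so this difference has no replicate check. Cbfb had only 2 of its 10000 highest positions in the windows, for a ratio of 1.58 (0.191 to 5.71).

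**Figure D1:**
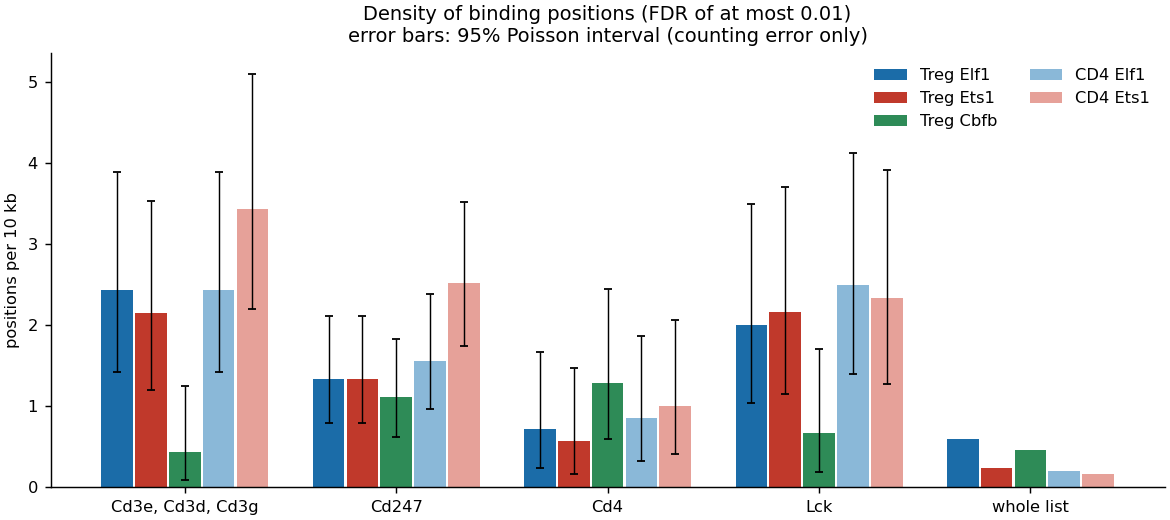
Positions per 10 kb (y axis) with an FDR of at most 0.01 in each of the 4 windows and over the whole list (x axis), with a bar for each library and exact Poisson 95% intervals on the windows. Elf1 and Ets1 bars stand above those of the whole lists in all 4 windows, narrowly for Treg Elf1 at Cd4 (0.714 against 0.597). At Cd4 the Treg Cbfb bar, at 1.29 per 10 kb, is the tallest.

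The windows differed in what filled them. The Cd3 window had 17 Treg Elf1, 15 Treg Ets1, 17 CD4 Elf1 and 24 CD4 Ets1 positions, but only 3 Treg Cbfb positions. The numbered chromosomes and X were laid out in stretches of the same 70 kb, of which 35745 held a deposited position of any binding list. Stretches without one were left out, here and below. Of those kept, 0.439% held as many Treg Ets1 positions or more, 0.148% as many CD4 Elf1 and 0.117% as many CD4 Ets1. For Treg Cbfb the share was 61.7%. In the Lck window, 12 Treg Elf1, 13 Treg Ets1, 15 CD4 Elf1 and 14 CD4 Ets1 positions stood beside 4 Treg Cbfb positions, which 33.5% of stretches of 60 kb matched.

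Cbfb positions were more frequent per length at Cd247 and Cd4, though the Poisson intervals of the windows overlap. The 135 kb Cd247 window held 18 Treg Elf1, 18 Treg Ets1, 15 Treg Cbfb, 21 CD4 Elf1 and 34 CD4 Ets1 positions, and 1.88% of stretches held as many Cbfb positions. The ETS lists were dense there too, with 1.11% of stretches reaching its Treg Ets1 count, 5.77% its Treg Elf1, 0.510% its CD4 Elf1 and 0.177% its CD4 Ets1 count. Around Cd4 there were 9 Cbfb positions, a number that 2.21% of stretches reached, and 5 Treg Elf1, 4 Treg Ets1, 6 CD4 Elf1 and 7 CD4 Ets1 positions. Of the stretches, 40.5% held as many Treg Elf1 positions as the Cd4 window and 3.12% as many CD4 Ets1 positions. Cbfb positions had a median fold enrichment of 2.61 over the 4 windows, against 4.36 over the whole Cbfb list. By score they did not differ from the list, with a median of 2.78 in the windows and 2.78 over the list.

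**Figure D2:**
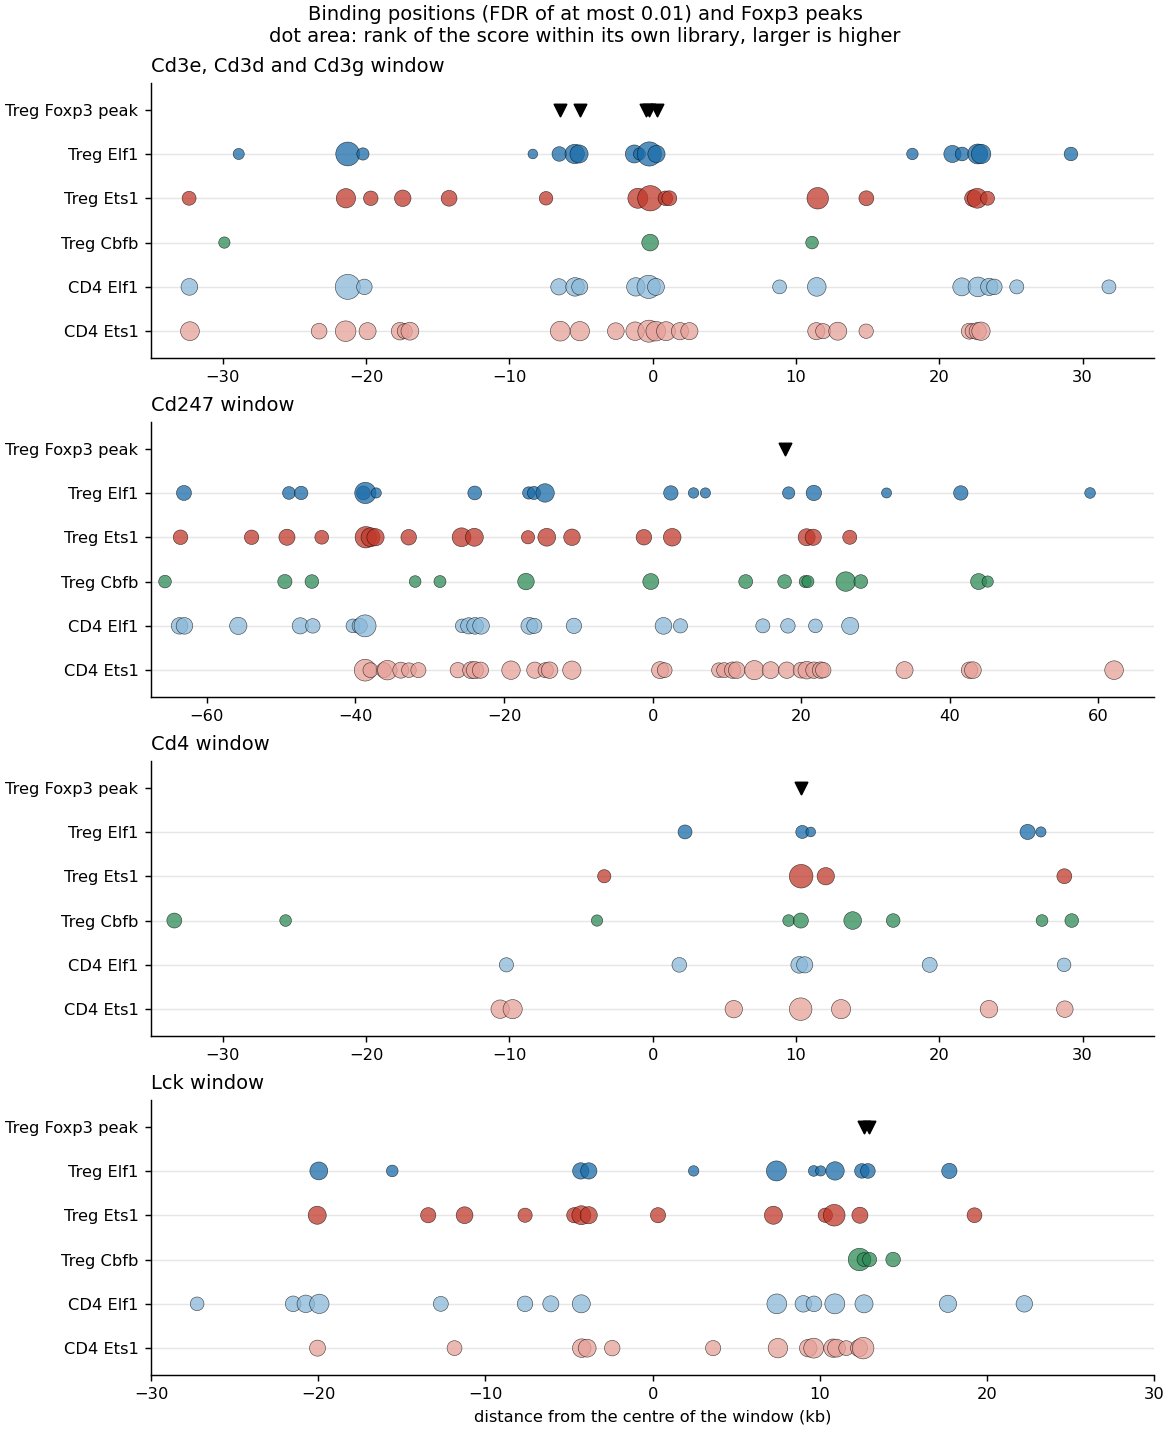
Positions with an FDR of at most 0.01 along the 4 windows (x axis, distance from the centre of the window in kb), with a row for each library and Foxp3 peaks as triangles on top. Dot area grows with the rank of the score within its own library. In the Cd3 window 3 of the 5 Foxp3 peaks lie beside the largest dots near the centre, and the highest-ranked Cbfb dot of the Lck window lies next to its 2 Foxp3 peaks.

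Positions of different libraries within 200 bp of each other were joined into sites, 170 in the 4 windows. Elf1 or Ets1 was found in both cell types at 45 of them (26.5%), against 6.59% of 370726 sites in the genome. All 4 Elf1 and Ets1 lists met at 13 sites (7.65%), against 1.84% in the genome. The 13 were spread as 4 at the Cd3 genes, 3 at Cd247, 1 at Cd4 and 5 at Lck. All 5 libraries met at 3 sites (1.76%), against 0.376%, with 1 each at the Cd3 genes, Cd4 and Lck. Sites with a position in 1 library only made up 69.4% in the windows and 90.1% in the genome. Elf1 or Ets1 was present only in Treg at 22.4% of the window sites and only in CD4 at 38.2%, whereas in the genome the order was turned round, at 48.8 and 14.7%. The Treg Elf1 list was the longest of the 5, and positions were denser in the windows than over the lists, so more can fall within 200 bp. How far list length or this density sets these shares was not tested.

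Values of single positions are the authors', and serve here to rank positions within a list. Fold enrichment is the deposited estimate over a control that the labels do not name, its lower bound is the deposited lower limit, and rank 1 is the highest score of a library. Among the 271 window positions with an FDR of at most 0.01, 118 (43.5%) had a lower bound under 1, against 51.9% over the whole lists. Such positions made up 61.3% of those of Treg Cbfb (63.0% over its list), 44.2% of Treg Elf1 (47.0%) and 46% of Treg Ets1 (57.7%). For CD4 Ets1 the share was 30.4% (38.8%), whereas for CD4 Elf1 it was 49.2%, above the 44.7% of its list. The pooled shares also mix the libraries in different proportions. A large fold can also rest on few reads, as a wide gap between the fold and its lower bound shows.

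At the Cd3 genes, the site shared by all 5 libraries spanned chr9:44794721-44794839, a stretch of 118 bp, and held some of the highest ranks of each ETS list. Treg Elf1 had a fold enrichment of 19.4 (lower bound 9.41, rank 478 of 187745) and Treg Ets1 of 24.8 (10.01, rank 252 of 226148). Treg Cbfb had 4.94 (1.62), the highest Cbfb score in the window, at rank 17471 of 161760. In CD4 cells, Elf1 had 17.3 (8.10, rank 850 of 241359) and Ets1 15.3 (7.24, rank 1568 of 242086). No lower bound among these 5 fell under 1, and for each factor the higher fold exceeded the lower by less than 2-fold.

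A second Cd3 site, at chr9:44773579-44773728, was led by Elf1. Fold enrichments there were 44.4 for Treg Elf1 (lower bound 18.3, rank 591) and 68.4 for CD4 Elf1 (28.9, rank 307), the highest CD4 Elf1 score of the 4 windows. Ets1 ranked lower at the same place, at 5793 in Treg (12.6-fold) and 3252 in CD4 (12.4-fold), and no Foxp3 peak lay there. The site at chr9:44817651-44817698 had all 4 ETS lists within 47 bp, with 14.2-fold Treg Elf1, 8.27-fold Treg Ets1, 22.2-fold CD4 Elf1 and 12.9-fold CD4 Ets1. The Ets1 fold was higher in Treg at chr9:44806423-44806520, with 15.3 in Treg (lower bound 3.98, rank 2071) and 4.18 in CD4 (1.60, rank 14847). The Treg lower bound lay below the CD4 fold, so this difference is uncertain. Outside the site, at 44806902, CD4 Ets1 had 32.8-fold (lower bound 5.62, rank 31637). CD4 Elf1 had a position of 18.2-fold at this last site and Treg Elf1 none.

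Cd247 had no site of all 5 libraries and 3 of the 4 ETS lists. The strongest, chr1:167718802-167718901, held the highest score of the window in every ETS list. Treg Elf1 had a fold enrichment of 135 there (lower bound 24.5, rank 2284) and Treg Ets1 5.55 (2.03, rank 2145). CD4 Elf1 had 38.8 (14.2, rank 1619) and CD4 Ets1 26.3 (7.73, rank 1773). Elf1 was thus 1.80 higher in Treg than in CD4 on the log2 scale and Ets1 fell by 2.25 in Treg against CD4, while the ranks of all 4 stayed between 1619 and 2284. The Treg Elf1 lower bound of 24.5 lay below the CD4 Elf1 fold of 38.8, so the Elf1 difference is uncertain. The other 2 sites, at chr1:167733506-167733602 and chr1:167779114-167779407, stayed under 10-fold in all 4 lists. Cbfb reached rank 5365 at 167783489 in the Cd247 window, with a fold enrichment of only 2.03 (lower bound 0.407).

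At Cd4, 1 site stood out, chr6:124835227-124835612, where all 5 libraries and the Foxp3 peak of the window met. By rank Ets1 led it, with 9.99-fold in Treg (lower bound 4.07, rank 677) and 15.4-fold in CD4 (6.23, rank 1206). Elf1 was low in score here, at rank 63701 in Treg (3.84-fold, lower bound 0.994) and 18283 in CD4 (5.34-fold, 2.02). A second CD4 Elf1 position, at 124835612, had a larger fold than either Ets1 library, 28.2 (4.49), at rank 21262. The highest Treg Elf1 score of the Cd4 window lay elsewhere, at 124851166, with 5.38-fold (1.29, rank 31289). At the shared site, Treg Cbfb had 2.61-fold with a lower bound of 0.630, under 1, although its FDR of 0.00078 passed the limit. The highest Cbfb score of the Cd4 window lay at 124838959, with 7.84-fold (lower bound 1.49, rank 12009), and no other library had a position with an FDR of at most 0.01 in its site. Where the Cd4 silencer lies relative to these positions was not determined.

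Lck had 5 sites of all 4 ETS lists. The one with all 5 libraries, chr4:129252345-129252643, held the highest Cbfb score of the 4 windows, at rank 1253 (4.85-fold, lower bound 1.36), and the highest CD4 Ets1 score of the Lck window, at rank 2046 (101-fold, lower bound 18.7). CD4 Elf1 had 74.5-fold (13.4), Treg Elf1 10.6-fold (2.37) and Treg Ets1 3.71-fold (1.04). A second Cbfb position of this site, at 129252640, had the largest Cbfb fold of the windows, 28.7 (lower bound 4.11), at the lower rank of 49613. Just outside the site, at 129252664, Treg Ets1 had 61.9-fold (10.8) with an FDR of 0.0164, above the limit. The site at chr4:129235703-129235758 was enriched in all 4 lists, at 46.5-fold for Treg Elf1, 26.0-fold for Treg Ets1, 64.6-fold for CD4 Elf1 and 23.9-fold for CD4 Ets1. The highest Elf1 scores of the Lck window lay at 129247404 in Treg (rank 4250, 14.2-fold) and at 129250896 in CD4 (rank 4373, 14.2-fold). The highest Treg Ets1 score was at 129250863 (rank 1910, 9.54-fold), in the same site as that CD4 Elf1 position.

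Foxp3 peaks, each 200 bp wide and without a score, numbered 5 at the Cd3 genes, 1 at Cd247, 1 at Cd4 and 2 at Lck. This came to 0.269 per 10 kb, against 0.0109 per 10 kb over the numbered chromosomes and X, a ratio of 24.6 (exact Poisson 95% interval 11.2 to 46.7). Of 70 kb stretches, 0.104% held 5 peaks or more and 5.46% held 1 or more. The 5 peaks of the Cd3 window started at 44788466, 44789799, 44794405, 44794672 and 44795200, so that the last 3 lay 267 and 528 bp apart. At Lck the 2 peaks started 270 bp apart, at 129252549 and 129252819. Neighbouring peaks share nearby positions and are not independent, so the Poisson interval is likely too narrow. The windows were chosen with earlier results of these data known, so the ratio is a description only.

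At the FDR limit, Treg Ets1 accompanied fewer of these peaks than the other ETS libraries did. With an FDR of at most 0.01 and within 200 bp, Treg Elf1 had a position at 8 of the 9 peaks, CD4 Elf1 at 8 and CD4 Ets1 at 8, against 85.2, 88.9 and 89.0% of all Foxp3 peaks. Treg Ets1 had a position at 3 of 9 (33.3%, exact Clopper-Pearson 95% interval 7.49 to 70.1), against 83.5% of all Foxp3 peaks. With all deposited positions it was present at 7 of 9, against 92.4%. Over the 10000 highest scores Elf1 was as sparse, with Treg Elf1 at 3 of 9 (against 54.4%), CD4 Elf1 at 2 (59.2%) and Treg Ets1 at 2 (61.0%), while CD4 Ets1 was at 7 (70.9%). The contrast of Treg Ets1 with Elf1 thus depends on the limit. At the FDR limit, Treg Cbfb had a position at 5 of 9 (55.6%, 21.2 to 86.3), against 28.1% of all. Over the 10000 highest scores Treg Cbfb was at 1 of 9 (11.1%), against 11.1% of all, so its excess also depends on the limit. Both intervals treat the 9 peaks as independent, which neighbouring peaks are not, so they are likely too narrow.

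The 2 Cd3 peaks to the left showed this for Ets1. At the peak from 44788466, Ets1 had a fold enrichment of 2.61 in Treg (FDR 0.0475) and 7.11 in CD4 (rank 4795), and Elf1 had 8.97 in Treg and 21.5 in CD4. At the peak from 44789799, Ets1 had 9.99 in Treg, with an FDR of 0.0138, and 10.1 in CD4 (rank 5796), and Elf1 20.4 in Treg and 17.1 in CD4. The peak from 44795200 had Treg Elf1 at 22.0-fold, CD4 Elf1 at 10.5-fold and CD4 Ets1 at 39.2-fold (lower bound 11.8), while the nearest Treg Ets1 position lay 361 bp from the interval. The same Treg Ets1 position, at 44794839, lay 234 bp from the peak at 44794405. Of the 6 peaks without Treg Ets1, these 2 missed it by distance and the other 4 had a position with an FDR above 0.01. The Cd247 peak, at 167775174, was the weakest in ETS binding: neither Elf1 library had a position within 200 bp, CD4 Ets1 had 8.01-fold at 183 bp from the interval and Treg Cbfb 3.77-fold (lower bound 1.11) inside it.

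**Figure D3:**
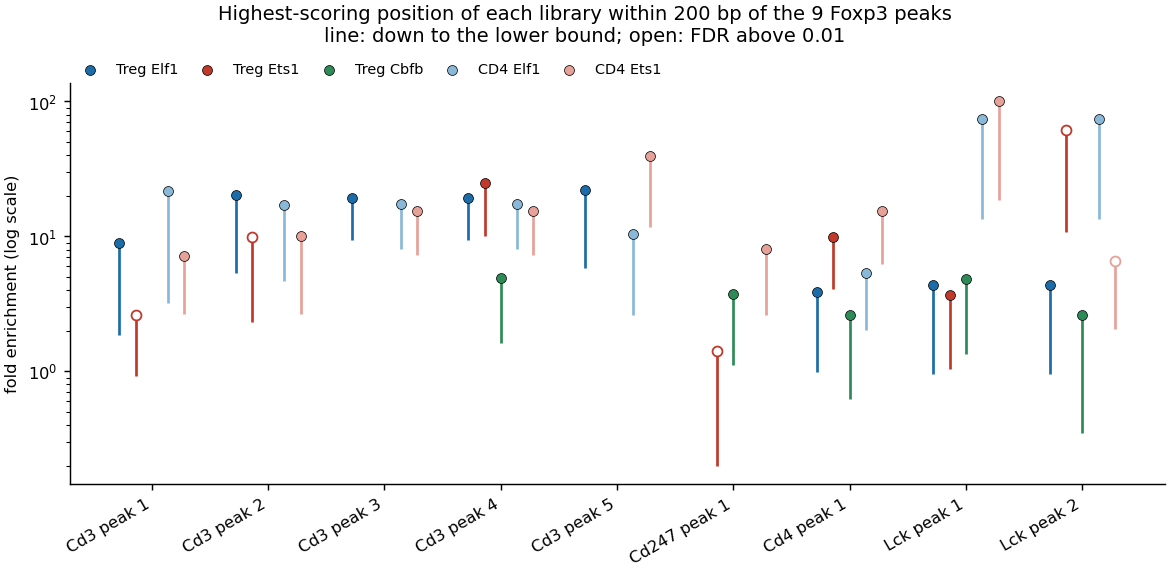
Fold enrichment on a log scale (y axis) of the highest-scoring position of each library within 200 bp of each of the 9 Foxp3 peaks (x axis, numbered by coordinate within the window). Lines run down to the lower bound and open symbols have an FDR above 0.01. Treg Ets1 is filled at 3 peaks, and the tallest point is CD4 Ets1 at the first Lck peak, 101-fold.

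Treg and CD4 were then set side by side where the same factor had a position in both within 200 bp. For Elf1 there were 25 such pairs in the windows, 12 higher in Treg and 13 lower, with a median log2 ratio of Treg over CD4 of -0.071 (SD over pairs 1.02), against -0.17 over 17253 pairs in the genome. With the genome median subtracted the windows' median was 0.10, so Elf1 had no direction that held. At least a 2-fold rise in Treg was seen at 2 of 25 pairs (8%), against 13.7% in the genome, and at least a 2-fold fall at 4 (16%), against 18.7%. For Ets1, 8 of 25 pairs were higher in Treg and 17 lower, with a median of -0.64 (SD 1.01), against -0.44 over 11317 pairs. Of the 25 pairs, 2 (8%) were at least 2-fold higher in Treg, against 8.02% in the genome, and 5 (20%) at least 2-fold lower, against 28.4%. Over the 10000 highest scores, where 7 pairs were left, the Ets1 median was 0.031. These shares lay near or below the background, so the windows showed no excess of 2-fold differences for either factor.

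By window, the Ets1 median was -0.54 at the Cd3 genes (10 pairs), -0.88 at Cd247 (8 pairs), -0.45 at Cd4 (2 pairs) and 0.12 at Lck (5 pairs). The Elf1 medians were -0.26 at the Cd3 genes (10 pairs), 0.12 at Cd247 (7 pairs) and -0.071 at Lck (7 pairs), with only 1 pair at Cd4. The widest Elf1 differences were at Lck, where Treg had 10.6-fold at 129252515 and CD4 74.5-fold at 129252643, and at Cd4, where Treg had 3.84-fold at 124835445 and CD4 28.2-fold at 124835612. In both pairs the 2 positions lay over 100 bp apart. Among Ets1 pairs the widest was also at Lck, with 3.33-fold at 129236177 in Treg and 17.2-fold at 129236084 in CD4.

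**Figure D4:**
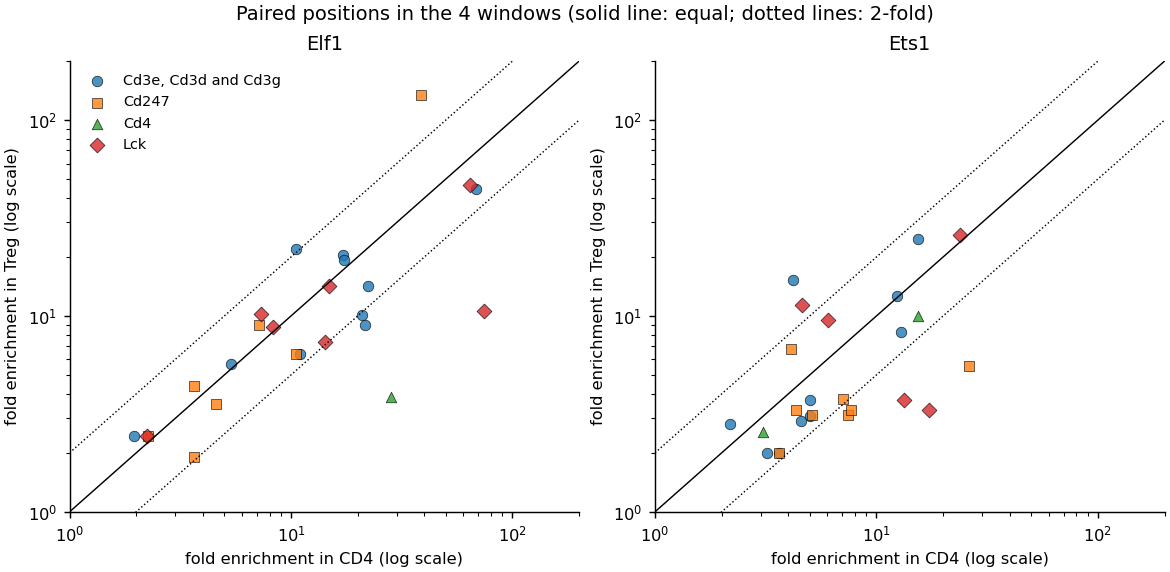
Fold enrichment in Treg (y axis, log scale) against that in CD4 (x axis, log scale) for the 25 Elf1 pairs (left) and the 25 Ets1 pairs (right), with symbols for the windows. The solid line marks equal values and the dotted lines a 2-fold difference; 17 of the 25 Ets1 points lie below the solid line.

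Within a site, positions of Elf1 and Ets1 lay close together, as in the rest of the genome. Their median distance was 87.5 bp in Treg (18 sites) and 52.5 bp in CD4 (24 sites), against 86 and 54 bp over the genome. Between Treg and CD4 the same factor moved by a median of 44 bp for Elf1 (26 sites) and 51 bp for Ets1 (26 sites), against 41 and 63 bp.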

How the data were processed

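Reads were aligned with Bowtie 0.12.7 to mm9, per the submitters' processing notes. The authors deposited, for each Elf1, Ets1 and Cbfb library, binding positions with a score, an FDR (q-value) and a fold enrichment ratio with its lower bound, per the file headers. Which caller, thresholds and control they used is not given in the sources used here. Foxp3 peaks were deposited as intervals with no score, combined over libraries, per the labels. The windows, members and lists were chosen with earlier results of these data known.

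Positions with an FDR of at most 0.01 inside each window were counted. Densities were set against the numbered chromosomes and X, with exact Poisson 95% intervals. Positions within 200 bp were joined into sites, and mutual nearest positions within 200 bp were paired between Treg and CD4. Named positions were every Foxp3 peak, the highest score of each library in each window, and sites with all 5 libraries or, failing that, the most libraries; other sites were named after their values were seen. With 1 library per group no test between groups was run. Alternatives were another FDR limit, all deposited positions, the 10000 highest scores, other window and pairing widths, the lower bound and centring on the genome median. Likeness of patterns between genes, a wider receptor pathway list and markers of other cells were not analysed here, as no annotation of the files' build was used. Functions were tested on simulated data. Python 3.11.15, numpy 2.4.6, pandas 2.3.3, scipy 1.17.1 and matplotlib 3.10.9 were used.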

Additional observations from a re-analysis of the deposited data

How the results depend on the processing

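The density ratios of the windows to the whole list stayed above 1 under every alternative run, but their size moved. Over the 10000 highest scores the Treg Elf1 ratio was 7.80, that of Treg Ets1 8.70 and that of CD4 Ets1 19.0. An FDR limit of 0.001 gave 8.88 for Treg Ets1 and 20.3 for CD4 Ets1. All deposited positions gave 4.29 for Treg Ets1, 4.18 for CD4 Elf1 and 7.20 for CD4 Ets1. Windows shortened by 10 kb gave 18.5 for CD4 Ets1. Sites with Elf1 or Ets1 in both cell types were 45 of 170 in the report. They were 29 of 103 at an FDR limit of 0.001 and 13 of 33 over the 10000 highest scores. With all deposited positions they were 92 of 350, so the total changed along with the count. The Elf1 median log2 ratio of Treg over CD4 changed sign with all deposited positions (0.077), shortened windows (0.0030), pairing within 500 bp (0.077) and the genome median subtracted (0.10). No direction is given for it. The Ets1 median was 0.031 with the 10000 highest scores, where 7 pairs were left, and -0.87 with the lower bound of the fold. The cause was not tested. The number of reads behind each library is unknown. No paired analysis was possible because each group compared has 1 library, and only the combined Foxp3 list and the inputs, which were not analysed here, carry replicate numbers.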
